A study of Mus musculus with 41 samples.

Results

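Sertoli cells are the somatic cells that enclose and nourish the germ cells of the testis. The 10 genes described here, Sox9, Amh, Wt1, Gata4, Cldn11, Inha, Aard, Dhh, Fshr and Kitl, are known as Sertoli cell genes. They were followed by symbol (GENCODE M21) through 2 gene count tables of 55536 identifiers each, made from mouse spermatogonial cells that differed in RHOX10, a homeobox transcription factor encoded on the X chromosome. All 10 genes had a row in both tables. The RHOX10 peaks that the submitters annotated to them were taken as well. Both materials were prepared as germ cells, one by sorting and the other by culture, so the levels below first show how much RNA of these genes each one held.

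In the developing testis SOX9, WT1 and GATA4 are transcription factors that set up and maintain the Sertoli cell. AMH, a hormone of the TGF-beta family, causes the Müllerian ducts to regress, and Inha encodes the alpha subunit of inhibin, which restrains the release of follicle-stimulating hormone (FSH). Dhh encodes the hedgehog ligand that Sertoli cells send to Leydig and peritubular cells, Kitl encodes the ligand of the KIT receptor of germ cells, and Fshr encodes the receptor for FSH. Cldn11 encodes a tight junction protein of the blood-testis barrier.

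RNA-seq was made from testis cells of C57BL/6 mice carrying an OCT4-eGFP reporter and sorted for eGFP. There were 4 wild-type libraries and 4 labelled Rhox10-null, each a pool of testes from 3 individuals whose age is not given in the labels. iSLAM-seq, a 3′ end assay of RNA after a switchable factor is turned on, was made from germline stem (GS) cells, a culture of spermatogonia derived from neonatal testes. All GS cells carried an shRNA lentivirus against endogenous Rhox10 and were sorted for its GFP. They then received a lentivirus with either a Rhox10-ERT2-mCherry fusion, which responds to 4-hydroxytamoxifen (called Rhox10 below), or ERT2-mCherry alone (Ctrl), and were sampled at 0, 0.5, 1, 2, 4 and 8 h with 2 libraries for each vector and time. The labels do not say whether the Ctrl cells also received 4-hydroxytamoxifen. CUT&Tag, an antibody-guided assay of where a protein sits on DNA, used GS cells with the same knockdown in 3 groups of 3 libraries: HA-tagged RHOX10, an HA-tagged empty vector and an IgG control.

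The RNA-seq libraries held 6602089 to 8278887 counts and the iSLAM-seq libraries 9419615 to 12645845. A single transcript, Gm42418, took 58.0% to 59.4% of the counts of wild-type libraries and 51.0% to 52.7% of those labelled null. Rhox10 itself had no lower level under the null label (0.481 to 1.20 CPM, counts scaled to a common library size of 1e6) than in wild-type (0.407 to 1.53 CPM), so the gene-level counts do not check that label. In iSLAM-seq Rhox10 was at 34.0 to 46.7 CPM in the Rhox10 libraries and 0.202 to 2.42 CPM in Ctrl, with 38.5 and 35.7 CPM already at 0 h. The 2 Ctrl libraries at 0.5 h stood apart from each other, with a chi-square statistic per degree of freedom of 26.6 where the next highest pair was at 4.57. The averages of the 10 genes over time are given with and without them where tested.

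The sorted germ cell libraries held much Sertoli RNA. Per kilobase of exon, Amh was at 83.1 ± 5.23 CPM per kb (SD, n = 4) in wild-type and 112 ± 4.93 in libraries labelled null, rank 92 of the 13538 genes tested. Inha was at 68.3 ± 3.56 and 74.2 ± 1.67 CPM per kb, rank 122. Both were above every one of the 12 germ cell genes listed, of which Dazl, an RNA-binding protein of germ cells, was the highest in wild-type at 20.3 ± 1.13 CPM per kb, with 9.61 ± 0.521 in libraries labelled null. Pou5f1, the gene whose reporter was sorted, was at 2.04 ± 0.414 and 1.94 ± 0.380 CPM per kb. In bulk libraries such as these, fewer cells of a type and less RNA per cell cannot be told apart.

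The order of the members in wild-type, per kilobase, was Amh, Inha, Aard (37.8 ± 1.77), Gata4 (19.9 ± 0.576), Kitl (9.14 ± 0.599), Sox9 (9.08 ± 0.271), Wt1 (7.57 ± 0.250), Dhh (5.18 ± 0.952), Fshr (3.53 ± 0.660) and Cldn11 (3.29 ± 0.524). The libraries of Kitl and Sox9 overlapped, as did those of Fshr and Cldn11, and every other pair of neighbours was separate. In libraries labelled null Aard (20.9 ± 0.890) overlapped Gata4 (20.3 ± 0.762), and Kitl (7.11 ± 0.193) stood below both Sox9 (8.45 ± 0.599) and Wt1 (8.16 ± 0.170). The summed level of the 10 genes was 533 to 556 CPM in wild-type and 554 to 572 CPM in libraries labelled null, while the 12 germ cell genes summed to 271 to 287 and 135 to 145 CPM.

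**Figure D1:**
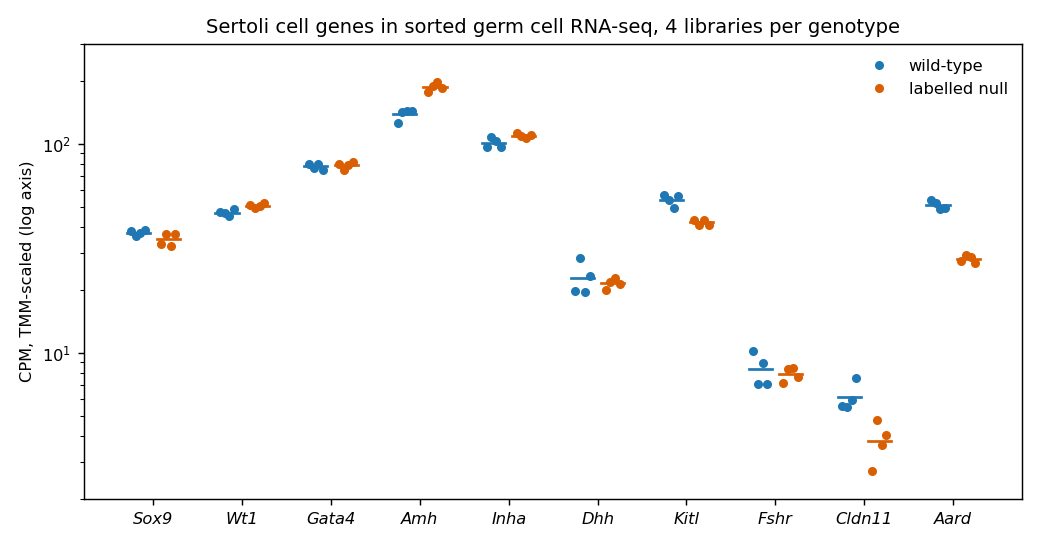
TMM-scaled CPM (log axis) of the 10 Sertoli cell genes in each RNA-seq library (points), with the mean of each genotype (bars), 4 libraries each. Under this scaling Amh was higher in the libraries labelled null, while Aard, Kitl and Cldn11 were lower. All 3 of these differences turn positive when libraries are scaled to germ cell genes, where Kitl is called and Aard and Cldn11 are not.

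The comparison of genotypes asked which genes depend on RHOX10 in these cells. The members did not move as a block. With trimmed-mean (TMM) scaling 5 of the 10 passed an adjusted p of 0.05, 2 higher and 3 lower in the libraries labelled null, where 37.5% of all genes tested were called, 18.6% higher and 18.9% lower. The groups of 4 did not overlap for 5 members (Amh, Wt1, Kitl, Cldn11 and Aard), where 32.2% of all genes tested had no overlap. The median log2 fold change of the members was -0.08, and that of all genes 0.0031. The count of calls is not read as a result about the set, and the values of single genes follow. The choice of scaling moved every log2 fold change and could reverse those that were negative with TMM. Library totals raised the log2 fold change of all genes by a median of 0.347 (7229 higher, 629 lower, against 2518 and 2553 with TMM). Scaling to the 12 germ cell genes raised it by 0.959 (12511 higher, 56 lower), and DESeq2 size factors moved it by -0.0037. A gene clearly higher with TMM was therefore bound to stay higher under the other scalings, which is no further evidence for its rise.

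Of the transcription factors, none passed the test with TMM. Sox9 (ENSMUSG00000000567, GRCm38 chr11:112782224-112787760, plus strand) was at 38.1, 36.0, 37.5 and 38.7 CPM in wild-type and 33.3, 36.9, 32.3 and 37.1 CPM in libraries labelled null. The groups overlapped, and the log2 fold change was -0.11 (SE 0.0633, edgeR adjusted p = 0.166); it was 0.24 with library totals and 0.85 with germ cell scaling. Wt1 (ENSMUSG00000016458, chr2:105126529-105173616, plus strand) was at 44.9 to 48.7 CPM in wild-type and 49.3 to 51.8 CPM in libraries labelled null, a small separation with a log2 fold change of 0.11 (SE 0.0553, edgeR adjusted p = 0.126). Gata4 (ENSMUSG00000021944, chr14:63198922-63271692, minus strand) was at 75.2 to 79.8 and 75.0 to 81.9 CPM, a log2 fold change of 0.03 (SE 0.0504). Library totals called Wt1 and Gata4 higher at 0.45 and 0.37, and germ cell scaling at 1.07 and 0.99.

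Of the hormone genes, Amh was higher in the libraries labelled null, while the rise of Inha was small and easily lost. Amh (ENSMUSG00000035262, chr10:80805243-80807648, plus strand) was at 126, 143, 143 and 144 CPM in wild-type and 177, 189, 197 and 185 CPM in libraries labelled null. Every library labelled null lay above every wild-type library, and Amh rose by 0.43 on the log2 scale (SE 0.0484, edgeR adjusted p = 1.34e-09); it was also higher with library totals (0.78) and germ cell scaling (1.39). Inha (ENSMUSG00000032968, chr1:75507077-75510366, plus strand) was at 96.6, 107, 103 and 96.3 CPM in wild-type and 112, 109, 107 and 110 CPM in libraries labelled null. The groups overlapped, and the rise of Inha by 0.12 (SE 0.0486, edgeR adjusted p = 0.0455) was at the edge of the threshold. The call was lost when any 1 of 6 libraries was left out (null replicate 1, 2 or 4, wild-type replicate 1, 3 or 4; values 0.09 to 0.12), and with DESeq2 (0.12), DESeq2 size factors (0.12), no filter on low counts (0.13) or a filter at a mean of 1 CPM (0.11). With library totals it was 0.47 and with germ cell scaling 1.08, both called.

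Among the signalling genes, Kitl (ENSMUSG00000019966, chr10:100015630-100100416, plus strand) was at 56.9, 53.7, 49.2 and 56.4 CPM in wild-type and 43.0, 41.1, 43.0 and 41.0 CPM in libraries labelled null. The groups were separate, and Kitl fell by 0.36 with TMM (SE 0.0576, edgeR adjusted p = 2.28e-06), a difference that was -0.016 and not called with library totals and 0.60, in the other direction, with germ cell scaling. Kit, its receptor on germ cells, was at 11.5 ± 2.53 CPM in wild-type and 6.23 ± 0.751 CPM in libraries labelled null (log2 fold change -0.88 with TMM, 0.0777 with germ cell scaling). Dhh (ENSMUSG00000023000, chr15:98891152-98898540, minus strand) was at 19.9, 28.5, 19.5 and 23.2 CPM in wild-type and 19.99, 21.7, 22.8 and 21.4 CPM in libraries labelled null. The groups overlapped (log2 fold change -0.09, SE 0.0886, edgeR adjusted p = 0.442; 0.26 with library totals and 0.87 with germ cell scaling). Fshr (ENSMUSG00000032937, chr17:88984952-89200675, minus strand) ranged over 7.05 to 10.2 and 7.21 to 8.41 CPM, with a log2 fold change of -0.07 (SE 0.134) that was 0.89 with germ cell scaling.

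Aard, a small gene with an alanine and arginine rich domain, and the junction gene Cldn11 had the lowest fold changes of the 10. Aard (ENSMUSG00000068522, chr15:52040107-52045722, plus strand) was at 53.8, 51.8, 48.8 and 49.1 CPM in wild-type and 27.5, 29.4, 28.8 and 26.8 CPM in libraries labelled null. The groups were far apart, and Aard fell by 0.86 with TMM (SE 0.0611, edgeR adjusted p = 3.36e-15). Its log2 fold change was -0.51 and called with library totals, but 0.11 and not called with germ cell scaling. Cldn11 (ENSMUSG00000037625, chr3:31149920-31164324, plus strand) was at 5.57, 5.52, 5.93 and 7.60 CPM in wild-type and 2.73, 4.77, 3.60 and 4.04 CPM in libraries labelled null. It fell by 0.73 with TMM (SE 0.176, edgeR adjusted p = 0.000964), was -0.38 and not called with library totals, and was 0.23 and not called with germ cell scaling.

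Ratios between members do not depend on the scaling of libraries. The ratio of Amh to Aard counts was 2.34 to 2.93 in wild-type and 6.44 to 6.92 in libraries labelled null. The ratio of Amh to Kitl was 2.21 to 2.91 and 4.12 to 4.61, and that of Amh to Sox9 3.30 to 3.95 and 4.99 to 6.09. Inha to Aard was 1.79 to 2.10 and 3.70 to 4.10. Each of these 4 ratios was separate between genotypes, so the members in them changed unequally under any scaling. Each ratio sets a member with a positive TMM fold change over one with a negative value. The ratios therefore restate those differences, and other pairs were not examined. Across the 8 RNA-seq libraries and 8319 genes at a mean of at least 5 CPM, the genes most like Amh by Pearson correlation of log2 CPM were Col6a2 (0.992), Ltbp4 (0.992) and Ubqln4 (0.989), and those reported for Inha were Prmt3 (0.969) and Pkn2 (0.967). These correlations share libraries and genotype.

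**Figure D2:**
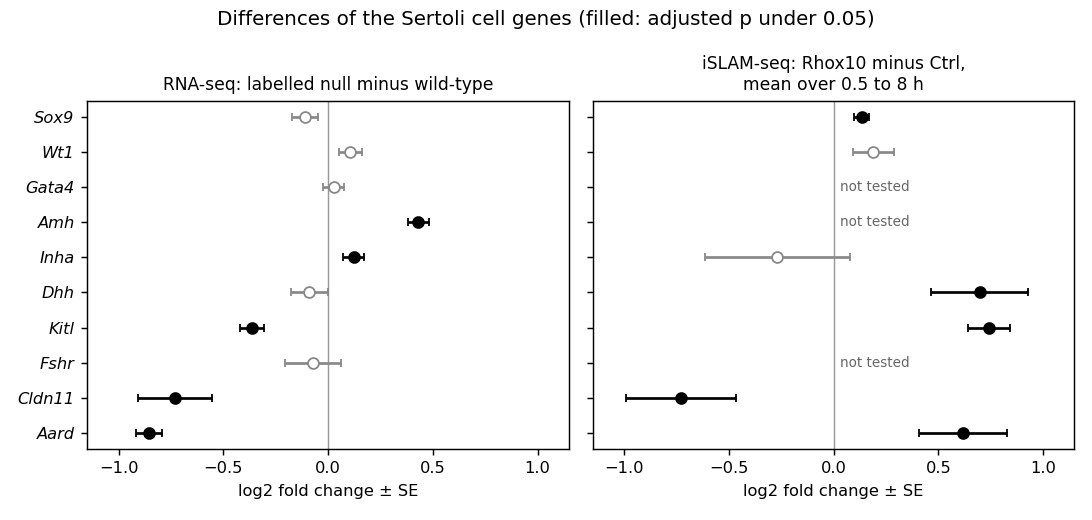
Log2 fold change ± SE of the 10 genes in RNA-seq (left, libraries labelled null minus wild-type, 4 each) and in iSLAM-seq (right, Rhox10 minus Ctrl, mean over 5 times, 2 libraries each). Filled points passed an adjusted p of 0.05. Amh (0.43) and Aard (-0.86) mark the ends on the left with TMM scaling. The negative values on the left turn positive with germ cell scaling, those of Aard and Cldn11 without a call.

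Other genes of Sertoli cells were also divided. Of 22 further Sertoli genes 19 were tested, with 5 higher and 5 lower and a median of 0.02. Tjp1, a junction scaffold, fell from 83.1 ± 2.51 to 55.9 ± 2.86 CPM (log2 fold change -0.57 with TMM), and Cst12, a cystatin, from 22.4 ± 0.957 to 15.1 ± 0.581 CPM (-0.56); both were higher with germ cell scaling (0.39 and 0.40). Cyp26b1, which degrades retinoic acid, rose by 0.45 with TMM, and such a rise was bound to remain under the other scalings. The list summed to 895 to 924 CPM in wild-type and 889 to 892 CPM in libraries labelled null. With library totals 12 of the 19 were higher and 2 lower, and with germ cell scaling all 19 were higher.

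Markers of other somatic cells moved with the genotype. Leydig genes were higher for 4 of 5 tested (median 0.43, summed level 34.2 to 36.0 CPM in wild-type and 46.3 to 56.1 CPM in libraries labelled null). Peritubular and stromal genes were higher for 6 of 6 (0.68, 320 to 345 and 520 to 558 CPM), endothelial genes for 3 of 4 (0.48, 23.9 to 29.2 and 35.8 to 40.4 CPM), macrophage genes for 1 of 3 (0.34, 9.51 to 11.3 and 12.3 to 14.2 CPM) and erythroid genes for 6 of 6 (1.36 to 3.90 and 76.8 to 85.7 CPM). These rises held under every scaling, as they had to, because the other scalings left all genes nearly in place or raised them. Of the 12 germ cell genes 10 were lower (median -0.89), with 0 higher, while germ cell scaling, which uses these genes, gave 4 higher and 3 lower. Ptgds, Inhbb, Nr5a1 and Sox8 stand in more than 1 of the lists used here, and Kit is in both the germ cell list and that of Kitl. The part of other cell types in the members' differences was not tested.

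**Figure D3:**
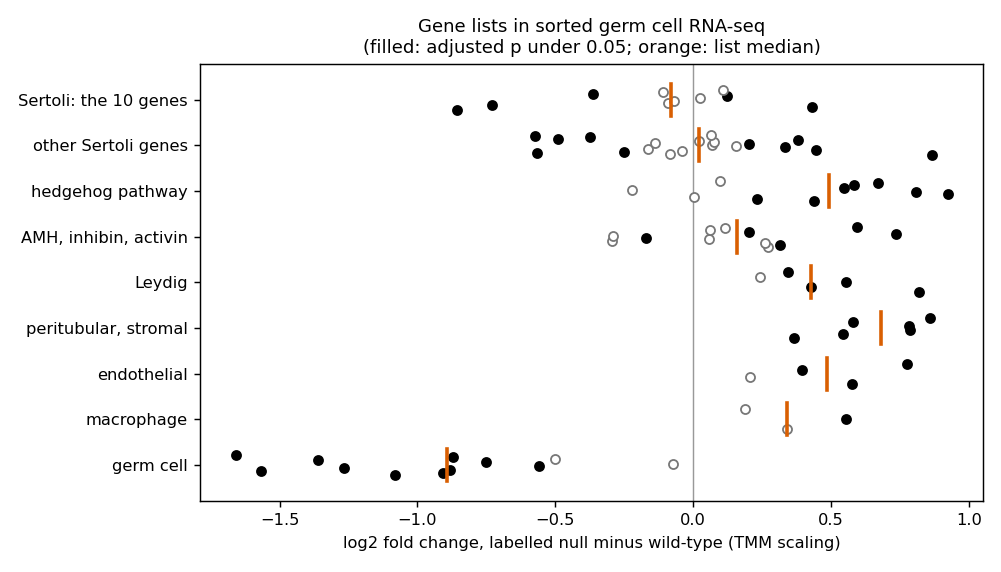
Log2 fold change (x axis, libraries labelled null minus wild-type, TMM scaling) of each tested gene of 9 lists in RNA-seq; filled points passed an adjusted p of 0.05 and the orange bar is the list median. The Sertoli lists straddle 0, the other somatic lists lie to the right and germ cell genes to the left; with germ cell scaling every tested gene of the 8 other lists lies to the right of 0.

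The partners of the members in their pathways were read in the same fit. Dhh was not called with TMM, while 7 of 10 hedgehog pathway genes were higher and 0 lower (median 0.49). At least 7 were higher under every scaling, which was bound to follow from how the other scalings move all genes. Ptch1, the receptor and a standard hedgehog target, rose from 66.3 ± 3.86 to 99.3 ± 4.98 CPM (log2 fold change 0.58, SE 0.0530, edgeR adjusted p = 4.92e-12). The target Gli1 rose from 9.28 ± 0.279 to 17.6 ± 1.26 CPM (0.92), and Hhip, an inhibitor that binds the ligand, by 0.55. The summed hedgehog list was at 182 to 189 CPM in wild-type and 242 to 257 CPM in libraries labelled null, beside the rise of the stromal and Leydig lists, whose cells carry these genes. How far that rise accounts for the hedgehog genes was not tested.

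For AMH and inhibin, 4 of 12 partners were higher and 1 lower with TMM, 10 and 0 with library totals, and 12 and 0 with germ cell scaling. The lower one, Bmpr1a, a BMP receptor, was at -0.17 with TMM and 0.17 with library totals. With TMM Inhba, the activin beta A subunit, rose from 18.2 ± 2.48 to 30.5 ± 1.94 CPM (0.74). Tgfbr3, an inhibin co-receptor, rose by 0.59, Acvr1b, an activin receptor, by 0.32 and Inhbb, the beta B subunit, by 0.20. These genes were higher under the other scalings too, as they were bound to be. Amhr2, the AMH receptor, was at 16.3 ± 1.12 and 17.1 ± 1.30 CPM (0.06, SE 0.0898). Of 8 tested partners of GATA4, WT1 and SOX9, 3 were higher and 2 lower with TMM, 6 and 0 with library totals, and 8 and 0 with germ cell scaling. Lhx9, a gonadal homeobox gene, rose by 0.81 and Ptgds, a prostaglandin D2 synthase, by 0.38. Sox8, the close relative of Sox9, fell by 0.37 and Nr0b1 by 0.56 with TMM, both higher with germ cell scaling (0.59 and 0.40).

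In GS cells the pattern was different: Sox9 was abundant and Amh absent from every library. The 3′ end kit gives a count per transcript end, so iSLAM-seq levels carry no length term. Over 24 libraries Sox9 averaged 311 CPM, rank 512 of the 20642 genes tested. Amh had 0 counts in all 24 libraries, which allows up to 0.241 to 0.311 CPM in a single library and 0.0115 CPM over all (3 counts of the total, counting error only). Gata4 had 62 counts in all, spread over 13 libraries and never above 1.01 CPM, and Fshr had 12 counts in 5 libraries. Counts of these 3 genes were too low to test. The other 7 were tested: Kitl averaged 15.9 CPM, Wt1 13.5, Aard 5.90, Dhh 2.83, Cldn11 1.41 and Inha 1.13. Of the 22 further Sertoli genes Rhox8 was at 0 in every library, and Cst9, Cst12, Defb19 and Nr5a1 were never above 0.415 CPM. Other genes of that list, named after their values were seen and expressed by many cell types, were abundant, among them Ctsl (1466 ± 192 CPM in Ctrl and 3992 ± 298 in Rhox10, SD over 12 libraries) and the intermediate filament gene Vim (932 ± 154 and 1444 ± 132). High Sox9 thus stood beside some Sertoli list genes that were abundant and others at or near 0. The 6 peritubular and stromal genes were abundant too, at a summed 704 to 1225 CPM in Ctrl and 778 to 1486 CPM in Rhox10. Endothelial genes summed to 31.3 to 46.8 and 19.8 to 32.0 CPM, and macrophage genes to 23.3 to 35.4 and 19.3 to 31.2 CPM. Which cells of the culture held the RNA of Sox9 or the other members was not tested.

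The vector comparison asked what the RHOX10 fusion changes over time. Averaged over 0.5 to 8 h, 5 of the 7 tested members were called, 4 higher and 1 lower in Rhox10 libraries, where 37.1% of all genes tested were called, 18.7% higher and 18.4% lower. The median was 0.19 for the members and 0.0015 for all genes. By time, 1 member was called at 0 h, where 10.9% of all genes were, and 2 each after 0.5 h (14.5%), 1 h (9.91%) and 2 h (10%). After 4 h it was 1 member (12.2%) and after 8 h 2 (16.8%). These calls were higher in Rhox10 up to 4 h and lower at 8 h. The average carries whatever already differed at 0 h.

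**Figure D4:**
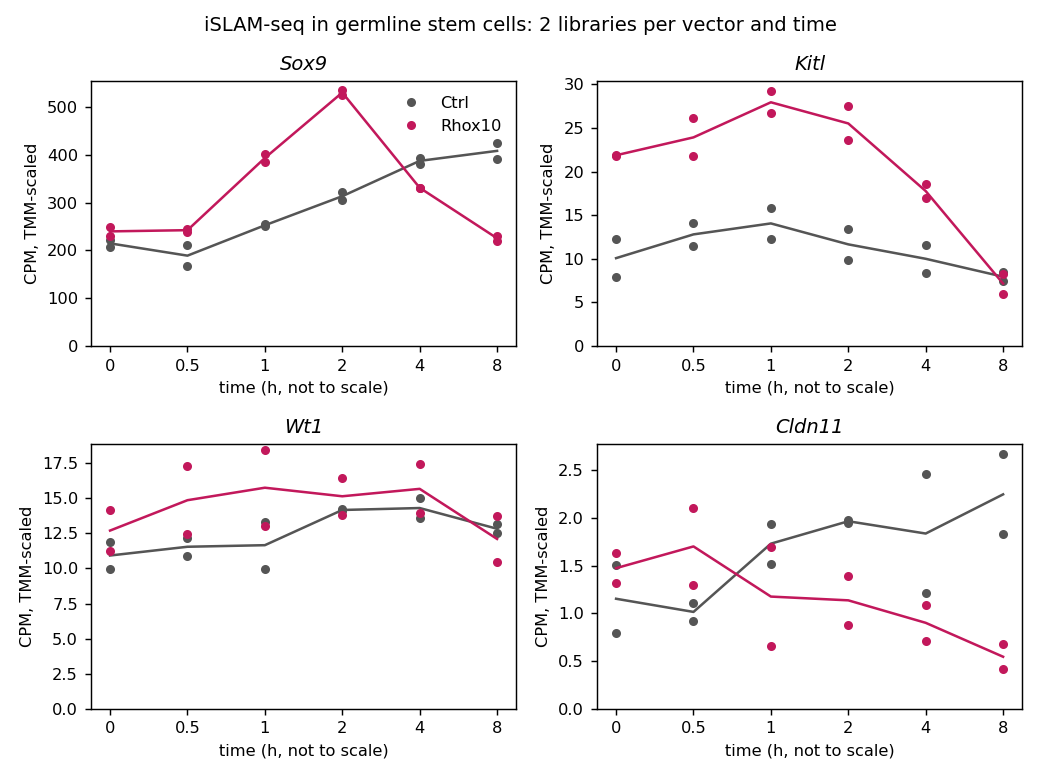
TMM-scaled CPM of Sox9, Kitl, Wt1 and Cldn11 in iSLAM-seq by time (h, positions not to scale), with points for the 2 libraries of each vector and lines through their means. Sox9 reached 525 and 536 CPM in Rhox10 at 2 h and returned to 221 and 230 CPM at 8 h, while Ctrl rose to 425 and 391 CPM; Kitl in Rhox10 came down to the level of Ctrl at 8 h.

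Sox9 took different courses in the 2 vectors. In Ctrl it was at 222 and 208 CPM at 0 h, then 211 and 167 (0.5 h), 255 and 251 (1 h), 305 and 322 (2 h), 394 and 381 (4 h), and finally 425 and 391 (8 h). In Rhox10 it was at 249 and 231 CPM at 0 h, then 245 and 240 (0.5 h), 386 and 401 (1 h), 525 and 536 (2 h), 331 and 331 (4 h), and finally 221 and 230 (8 h). Ctrl thus climbed to its highest levels at 4 and 8 h, and Rhox10 peaked at 2 h and was, at 8 h, just below its 0 h libraries. The pairs of libraries did not overlap between vectors at any of the 6 times, though separation of 2 libraries from 2 is common at any 1 time.

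The log2 difference of Sox9, Rhox10 minus Ctrl, was 0.16 at 0 h (SE 0.0817, not called), 0.36 after 0.5 h (0.52 without Ctrl 0.5 h replicate 1 and 0.20 without replicate 2, both called) and 0.64 after 1 h, and reached 0.76 at 2 h (SE 0.0810, edgeR adjusted p = 7.24e-07). It was then -0.23 after 4 h (SE 0.0808, edgeR adjusted p = 0.0729) and -0.86 after 8 h (SE 0.0818, edgeR adjusted p = 8.42e-08). Averaged over 0.5 to 8 h, a mean of differences of both signs, it was 0.13 (SE 0.0363, edgeR adjusted p = 0.00492), and 0.098 over 1 to 8 h without both Ctrl 0.5 h libraries. The change of this difference from 0 h was called (edgeR F-test, adjusted p = 1.30e-08), and Sox9 was the 1 member called where 2.39% of all genes were. From 0 to 8 h the difference fell by 1.02 (SE 0.115, edgeR adjusted p = 4.86e-06). Within vectors, Sox9 was the 1 member that changed with time in Ctrl, where 5.74% of all genes did (edgeR F-test, adjusted p = 3.32e-09), with log2 changes from 0 h of 0.55 (2 h), 0.85 (4 h) and 0.93 (8 h). In Rhox10 libraries 2 members, Sox9 and Kitl, changed with time where 9.44% of all genes did. There Sox9 (adjusted p = 8.92e-11, edgeR F-test) was up by 0.71 (1 h), 1.14 (2 h) and 0.46 (4 h), and at 8 h its change of -0.09 (SE 0.0817) was not called.

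The 12 groups fell, from high to low, as Rhox10 2 h, Ctrl 8 h, Rhox10 1 h, Ctrl 4 h, Rhox10 4 h, Ctrl 2 h, Ctrl 1 h, Rhox10 0.5 h, Rhox10 0 h, Rhox10 8 h, Ctrl 0 h and Ctrl 0.5 h for Sox9. Ctrl 8 h, Rhox10 1 h and Ctrl 4 h overlapped, neighbour with neighbour, as did Rhox10 0.5 h with 0 h and the last 3 groups among themselves, neighbour with neighbour. Without the Ctrl 0.5 h replicate 1 or 2 the 4 h difference of Sox9 was also called (-0.22 and -0.23), and so was that at 0 h (0.16 in both fits). Fitted on its own 4 libraries the 0.5 h difference was 0.35 and not called, and the 4 h difference was -0.21 and called. The genes most like Sox9 across the 24 libraries, among 12059 genes, were Prag1 (Pearson r 0.954), Tbx3 (0.938) and Fbxo32 (0.907), libraries that share vector and time.

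Kitl was higher in Rhox10 libraries from the start. At 0 h it was at 7.90 and 12.3 CPM in Ctrl and 21.9 and 21.8 CPM in Rhox10. The Ctrl libraries then held 14.1 and 11.5 CPM (0.5 h), 15.8 and 12.3 (1 h), 13.4 and 9.92 (2 h), 8.37 and 11.6 (4 h), and 8.48 and 7.43 (8 h). The Rhox10 libraries held 21.8 and 26.1 CPM (0.5 h), 26.7 and 29.2 (1 h), 27.5 and 23.6 (2 h), 18.5 and 16.996 (4 h), and 6.01 and 8.32 (8 h). The vectors were separate from 0 to 4 h and overlapped at 8 h, though separation of 2 libraries from 2 is common at any 1 time. Averaged over 0.5 to 8 h the log2 fold change was 0.74 (SE 0.101, edgeR adjusted p = 2.88e-06), with 0.72 over 1 to 8 h without both Ctrl 0.5 h libraries, and at 0 h it was 1.12 (SE 0.223, edgeR adjusted p = 0.00168). At 8 h it was -0.15 (SE 0.250, not called).

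From 0 to 8 h the Kitl difference fell by 1.26 (SE 0.334, edgeR adjusted p = 0.0431), 1 of 2 members called in that contrast, where 2.57% of all genes were. Within Rhox10 libraries Kitl fell by 1.60 from 0 to 8 h (SE 0.233, edgeR adjusted p = 5.64e-05). The F-test over all times did not call the change of the difference (edgeR adjusted p = 0.202) but did so without Ctrl 0.5 h replicate 1, replicate 2 or both (adjusted p = 0.0131, 0.0285 and 0.0201, within a range of 0.0131 to 0.648 over all alternatives). Single times lost their call in fits without 1 library: 0 h without Ctrl 0 h replicate 1 (0.83), 0.5 h without Rhox10 0.5 h replicate 2 (0.75), 1 h without Ctrl 1 h replicate 2 (0.82), and 4 h without Ctrl 4 h replicate 1 (0.64) or Rhox10 4 h replicate 1 (0.79) or 2 (0.90). The genes most like Kitl were Hif1a (Pearson r 0.924), Tcim (0.910) and Kcne4 (0.906).

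Cldn11 was low, and lower in Rhox10 libraries late in the course. In Ctrl it was at 1.51 and 0.800 CPM at 0 h and 2.67 and 1.83 CPM at 8 h, and in Rhox10 at 1.64 and 1.31 CPM at 0 h and 0.415 and 0.677 CPM at 8 h. The averaged log2 fold change was -0.73 (SE 0.264, edgeR adjusted p = 0.0332), and that at 8 h -2.02 (SE 0.627, edgeR adjusted p = 0.0289). Its change from 0 h was not called (edgeR F-test, adjusted p = 0.411). The averaged call was lost in 11 of 24 fits without 1 library (-0.72 to -0.60), and without a filter on low counts (-0.72). These left out Ctrl 0.5, 2 or 8 h replicate 1, Ctrl 1, 2 or 4 h replicate 2, Rhox10 1, 2, 4 or 8 h replicate 1, or Rhox10 0.5 h replicate 2. Without both Ctrl 0.5 h libraries the average over 1 to 8 h was -1.08. The call at 8 h was lost without any 1 of the 4 libraries of that time (-2.39 to -1.69).

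Aard and Dhh were higher in Rhox10 on average. Aard ranged over 1.33 to 8.48 CPM in Ctrl and 4.79 to 10.01 CPM in Rhox10, both Ctrl extremes being the 2 libraries at 0.5 h. Its averaged log2 fold change was 0.62 (SE 0.211, edgeR adjusted p = 0.0242) and 0.65 over 1 to 8 h without both Ctrl 0.5 h libraries; without only replicate 1 of these it was 0.998, and without only replicate 2 it was 0.46, both called. It was not called at any single time, its 0 h value was 0.60 (SE 0.457), and the averaged call was lost without Ctrl 2 h or 8 h replicate 1, Rhox10 2 h replicate 1 or Rhox10 4 h replicate 2 (0.55 to 0.58). Aard was called at 0.5 h without Ctrl 0.5 h replicate 1 (2.45), and at 8 h without Ctrl 0.5 h replicate 1 (0.89) or 2 (0.86).

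Dhh ranged over 0.530 to 3.81 CPM in Ctrl and 2.19 to 4.999 CPM in Rhox10, with an averaged log2 fold change of 0.70 (SE 0.231, edgeR adjusted p = 0.0205), 0.75 over 1 to 8 h without both Ctrl 0.5 h libraries, and 0.62 (SE 0.492) at 0 h, not called. The averaged call was lost without Ctrl 1 h replicate 2 (0.58). At 1 h its difference of 1.61 was not called, but it was without Ctrl 0.5 h replicate 1 (1.62) or 2 (1.61), without Ctrl 1 h replicate 1 (2.73) and with DESeq2 (1.63). Without Ctrl 1 h replicate 2 it was 0.99 and not called, and over all alternatives its adjusted p ranged from 0.0157 to 0.469. Dhh shares 546 exonic bases with Rhebl1 on the same strand, which had 690 to 1128 counts in the iSLAM-seq libraries and 9 to 16 in RNA-seq, and 1107 with the antisense gene Gm49442. Its iSLAM-seq level is uncertain for that reason. Wt1 (9.94 to 15.0 CPM in Ctrl, 10.5 to 18.5 CPM in Rhox10) had an averaged log2 fold change of 0.19 (SE 0.0986, edgeR adjusted p = 0.141), and Inha (0.807 to 1.94 and 0.0841 to 2.42 CPM) of -0.27 (SE 0.346, edgeR adjusted p = 0.590). Over 1 to 8 h without both Ctrl 0.5 h libraries these were 0.17 and -0.29.

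Among the other lists in GS cells, 8 of 17 tested Sertoli genes were higher on average and 6 lower (median 0.37). Cyp26b1 was higher by 0.92, Tjp1 was at -0.14 and not called, and Cst12 was not tested. The list summed to 1992 to 3448 CPM in Ctrl and 5953 to 7148 CPM in Rhox10, a difference carried mostly by Ctsl, a cathepsin. Of 12 germ cell genes 2 were higher and 6 lower (median -0.20), with Gfra1, a receptor subunit of spermatogonial stem cells, at -0.75 and Dazl at -0.10, not called. The summed germ cell list overlapped between vectors (2001 to 2761 and 2130 to 2437 CPM). Kit, the receptor for Kitl, was higher by 0.30 (edgeR adjusted p = 0.00239). Of 12 AMH and inhibin partners 5 were higher and 1 lower, with Inhba at 1.05, Tgfbr3 at 0.86 and Inhbb at 0.54. Of 7 tested partners of GATA4, WT1 and SOX9 4 were higher, Lhx9 among them (0.92), and 3 lower. Hedgehog genes were split, 2 higher and 2 lower of 9 tested, with Ptch1 at 0.30; with DESeq2 size factors 3 were higher and 1 lower.

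RHOX10 peaks were annotated to 3 members. The submitters' table holds 5147 merged peaks, each found in all 3 RHOX10 libraries, with scores of their own from 13.7 to 2801 (median 128). The peak of Wt1 lies at chr2:105126205-105126860, 3 bases from a start site by their distance, with a score of 159 (rank 2101). That of Sox9 lies at chr11:112781824-112782393, at -102 bases, with a score of 79.3 (rank 3554), and that of Aard at chr15:52039834-52040510, at 65 bases, with a score of 43.6 (rank 4579). All 3 are annotated as promoter peaks, and those of Sox9 and Aard score below the median. Within 3 kb of a start site, 27.3% of the genes tested in RNA-seq and 19.8% of those tested in iSLAM-seq had a peak, near the members' 3 of 10. In the iSLAM-seq average the log2 fold changes of these 3 genes were 0.13 (Sox9, called), 0.62 (Aard, called) and 0.19 (Wt1, not called). In RNA-seq with TMM scaling they were -0.11 (Sox9, not called), -0.86 (Aard, called) and 0.11 (Wt1, not called). Of the 3, only Sox9 was called for a change of the vector difference from 0 h.

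The other 7 members had no annotated peak, and the nearest peak lay 14.5 kb from Inha, 17.1 kb from Dhh, 19.9 kb from Gata4, 62.8 kb from Amh, 92.6 kb from Cldn11, 399 kb from Kitl and 671 kb from Fshr. RefSeq promoter sequences (GRCm38.p6) were at hand for 5 of the 10 members. Those of Cldn11, Dhh and Kitl are shown because these genes were called between the vectors without a peak nearby. They are the bases upstream of every annotated start of the gene, 250 for Cldn11 (chr3:31149670-31149919, plus strand) and Dhh (chr15:98898541-98898790, minus strand) and 59 for Kitl (chr10:100015571-100015629, plus strand). Capitals mark TAAT, the core of many homeobox sites, and GATA, each on either strand.
Cldn11: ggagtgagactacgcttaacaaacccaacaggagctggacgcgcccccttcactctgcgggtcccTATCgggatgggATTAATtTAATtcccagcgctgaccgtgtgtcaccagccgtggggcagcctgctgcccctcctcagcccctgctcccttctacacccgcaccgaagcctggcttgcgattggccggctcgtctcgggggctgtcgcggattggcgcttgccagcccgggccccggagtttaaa
Dhh: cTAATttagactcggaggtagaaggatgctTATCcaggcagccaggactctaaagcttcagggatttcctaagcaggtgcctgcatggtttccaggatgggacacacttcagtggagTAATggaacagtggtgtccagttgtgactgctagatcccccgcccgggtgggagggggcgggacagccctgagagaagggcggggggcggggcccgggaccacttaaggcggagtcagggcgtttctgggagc
Kitl: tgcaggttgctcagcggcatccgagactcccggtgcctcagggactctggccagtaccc
Cldn11 held 3 TAAT matches, 2 of them overlapping, and 1 GATA match, Dhh 2 and 1, and the short Kitl window 0 of both. Of 32851 RefSeq windows of 250 bases, 54.9% held TAAT and 53.6% GATA, so a match in one window is common.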

How the data were processed

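Tables of raw gene counts were deposited by the authors, for 8 RNA-seq and 24 iSLAM-seq libraries, with gene lengths, per the file headers. The submitters' processing notes name STAR 2.5.2b, Subread, featureCounts, DESeq2, limma 3.42.2, Bowtie2 2.2.5, SAMtools, HOMER, GRCm38 and mm10, with no roles. Whether the iSLAM-seq counts hold all reads or only converted ones, and the strand setting, are not given in the sources used here. Peak scores are the authors' own, deposited with distances and gene names. Counts were tested with edgeR 4.0.16 (quasi-likelihood, TMM, filterByExpr, Benjamini-Hochberg over all genes tested, threshold 0.05) in R 4.3.3. RNA-seq was fitted on genotype, iSLAM-seq on 12 group means. SE was obtained as |log2 fold change| over the root of the F statistic. CPM uses TMM-scaled library sizes. By the labels each RNA-seq library is a pool of 3 individuals, while the iSLAM-seq replicates are only numbered. Whether the numbered iSLAM-seq libraries are separate cultures or transductions is not given there. The p-values measure the spread between these libraries, whatever its source. Pairs of RNA-seq libraries of a genotype had a chi-square per degree of freedom of 1.22 to 4.49. All 10 members are reported, with up to 4 genes per list by smallest RNA-seq p among those called; a few genes this rule names are not reported here. The members and lists were chosen with earlier results of these data known. Counts were also simulated, with a log2 fold of 1 put on 200 genes, drawn only from genes above a minimum mean count. The RNA-seq fit, of 13538 genes, called 200 of these and 9 unchanged genes. For iSLAM-seq, of 20642 genes, the numbers were 200 and 9 on average and 170 and 3 at 8 h. They were 129 and 4 for a change since 0 h, and 162 and 6 for time within Ctrl. These rates hold for the better counted genes only and are not split by count level. They do not show what could be recovered at the low counts of Cldn11 (25 to 56 in RNA-seq, 4 to 28 in iSLAM-seq). The same holds for Inha (1 to 25) and Dhh (6 to 55) in iSLAM-seq. Many more genes, 5071, were called in the real RNA-seq data than were changed here. Alternatives were DESeq2 1.42.0, other scalings and filters, a replicate block, fits of 1 time and leaving out each library. Alternatives chosen after seeing the data were iSLAM-seq without genes above 1% of a library and without both Ctrl 0.5 h libraries. Same-numbered libraries did not deviate together (correlations -0.019 to 0.014 in RNA-seq, -0.015 to 0.035 in iSLAM-seq).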

Additional observations from a re-analysis of the deposited data

Results flagged for a closer look

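Amh in wild-type RNA-seq replicate 1 was at 126 CPM, where the other 3 wild-type libraries were at 142.5 to 143.8 CPM. Its gap to the nearest library divided by the range of the group was 0.927. It was the 1 value set apart in this way among 20 groups of 4 examined, and chance sets apart about 1 in 20. Without this library the log2 fold change of Amh was 0.38 and still called.

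The difference of Sox9 between Rhox10 and Ctrl changed from 0 h by a test of the change itself (edgeR F-test, adjusted p = 1.30e-08). Between 0 and 8 h the changes of Sox9 (adjusted p = 4.86e-06) and Kitl (adjusted p = 0.0431) both passed the edgeR test. The Sox9 difference turned from 0.76 at 2 h to -0.86 at 8 h, and that of Kitl went from 1.12 at 0 h to -0.15 at 8 h, both on the log2 scale. No explanation was tested.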

How the results depend on the processing

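In RNA-seq the number of members called, 5, was 8 (all higher) with scaling to germ cell genes, where 12511 of 13538 genes were higher. With library totals it was 7 (6 higher, 1 lower), where 7229 genes were higher and 629 lower. It was 0 when a log2 difference of 1 or more in size was also required. The share of all genes meeting that requirement is not given here for either assay, so such counts are not read as a result about the members. Across the 8 fits without 1 library the number called was 4 to 5. Signs reversed with library totals for Sox9 (0.24) and Dhh (0.26). With germ cell scaling they reversed for Cldn11 (0.23, not called), Kitl (0.60), Sox9 (0.85), Aard (0.11, not called), Dhh (0.87) and Fshr (0.89). The reversals arise because these scalings move all genes by medians of 0.347 and 0.959. In iSLAM-seq the 5 members called on average became 0 under the same size requirement and 3 to 5 across the fits without 1 library, 3 of them without Ctrl 2 h or 8 h replicate 1, Rhox10 2 h replicate 1 or Ctrl 1 h replicate 2. The 1 member whose difference changed from 0 h became 2 without both Ctrl 0.5 h libraries, and 1 to 2 without 1 library. Counts at single times across those fits were 0 to 2 (0 h), 1 to 3 (0.5 h), 1 to 3 (1 h), 0 to 2 (4 h) and 1 to 3 (8 h). In fits that leave 1 library in an arm, that library is assumed to vary like the other groups. At 8 h 1 member was called without a filter on low counts. Fits of the 4 libraries of a time called 0 members for 0.5 h with edgeR (1 at an unadjusted p under 0.05) and 2 for 4 h, and the cause was not tested. With the replicate block 5 members were called in RNA-seq and 5 in the iSLAM-seq average, and it changed no member's call. With 2 libraries per group and few counts for Cldn11, Inha and Dhh, depth limits what could be detected for those genes.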
